A study of Mus musculus with 6 samples.

Results

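The genes described here are 10 mouse genes whose products restrain or tune immune cells. They are the PD-1 ligand genes Cd274 and Pdcd1lg2, the CD28 and CTLA-4 ligand genes Cd80 and Cd86, the B7 family genes Cd276 and Vtcn1, the galectin gene Lgals9, the poliovirus receptor family genes Pvr and Nectin2, and Cd47. They were taken by symbol from a table of 55385 mouse genes, and all 10 were found. Each library is bulk RNA and is labelled as PDVC57, a squamous carcinoma line of mouse keratinocyte origin. The labels give 3 libraries of the genotype Sox2 KO (knockout) and 3 of Sox2 overexpression, all of 1 cell line. The series' design text speaks instead of carcinoma cells low or high in Sox2 recovered from grafted tumours. How Sox2 was removed or supplied, the number of clones and the number of animals are not given in the sources used here. P-values therefore measure the spread between these libraries, which may be technical in part.

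Checkpoint ligands sit on tumour cells and on antigen-presenting cells and engage receptors on T cells and natural killer cells. PD-L1 and PD-L2, the products of Cd274 and Pdcd1lg2, bind PD-1 and dampen T-cell receptor signalling, and interferon is a known inducer of Cd274. CD80 and CD86 bind CD28, which costimulates, and CTLA-4, which restrains, and are made mainly by dendritic cells, macrophages and B cells. PVR and Nectin-2 are bound by the inhibitory receptor TIGIT and the activating receptor CD226. CD47 binds SIRP-alpha on phagocytes and signals that the cell should not be engulfed.

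Sox2 itself separated the groups. Its levels were 1.44, 1.12 and 0.685 CPM (counts per 1000000, scaled with the TMM method) in knockout replicates 1, 2 and 3 and 78.3, 128 and 104 CPM in overexpression replicates 1, 2 and 3 (log2 fold change 6.58, standard error 0.33, edgeR adjusted p = 2.29e-06). Fold changes are overexpression over knockout throughout. The libraries held between 31247976 and 38543221 counts over mouse genes, and 3 counts, the limit that a count of 0 allows, correspond to 0.0759 to 0.101 CPM. This limit covers counting error only.

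The labelled cell type was checked against marker genes of epithelial and other cells. Whether a marker of another cell type came from such cells or from the carcinoma cells was not tested. The keratin gene Krt14 lay between 347 and 2330 CPM and the epithelial adhesion gene Epcam between 294 and 911 CPM in all 6 libraries. The summed level of 16 epithelial markers was 5010 to 7920 CPM with knockout and 11300 to 15800 CPM with overexpression, and 11 of the 16 rose. All 10 fibroblast markers fell, from a summed 56200 to 83900 CPM with knockout to 256 to 405 CPM with overexpression. In every knockout library the fibroblast sum was above the epithelial sum, so the label of a keratinocyte line alone does not describe their markers. The 6 general leukocyte markers summed to 39.1 to 280 CPM with knockout and 8.32 to 11.4 CPM with overexpression, with 5 of 6 lower past the threshold. T, NK and B cell markers summed to 6.74 to 57.5 CPM and 1.26 to 2.26 CPM in the same order. Of these 10 lymphocyte markers 7 were tested and 5 fell, and 5 of the 10 had at most 3 counts in every overexpression library. Endothelial markers summed to 26.9 to 114 CPM with knockout and 12.3 to 19.5 CPM with overexpression, and 4 of 5 tested fell. Neutrophil markers were low in both groups (4.54 to 8.74 CPM and 2.66 to 9.91 CPM), with 1 of 3 tested lower. Macrophage and dendritic cell markers summed to 690 to 1830 CPM with knockout and 1440 to 2540 CPM with overexpression, of which 1 of 13 tested rose and 5 fell. Most of that sum came from 3 MHC class II genes, H2-Aa, H2-Ab1 and Cd74. The other 14 markers, a split made after the values were seen, summed to 27.3 to 96.9 CPM with knockout and 22.6 to 39.2 CPM with overexpression. In bulk RNA, fewer cells of a type and less RNA per cell cannot be told apart.

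Knockout replicate 3 had the highest sums of general leukocyte markers (280 CPM) and of T, NK and B cell markers (57.5 CPM). Its macrophage and dendritic cell sum (690 CPM) was the lowest of the 6 libraries, and H2-Aa, H2-Ab1 and Cd74 were lowest there. Ptprc, the CD45 gene of all leukocytes, stood at 10.6, 21.6 and 88.1 CPM in knockout replicates 1, 2 and 3 and at 0.427, 0.541 and 0.506 CPM with overexpression. Itgax, the CD11c gene of dendritic cells, stood at 7.86, 13.4 and 40.3 CPM with knockout and had at most 5 counts in an overexpression library.

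Of the 10 genes, 9 passed the count filter and were tested, and 3 had an adjusted p under 0.05 (edgeR quasi-likelihood test). Vtcn1 and Nectin2 were higher with overexpression and Cd86 was lower. Over all 18504 tested genes, 31.6% passed the threshold, 13.6% higher and 18.0% lower, so the share among these genes is close to that of the table. The median log2 fold change was -0.063 over the 9 tested genes and -0.016 over all tested genes. The groups did not overlap for 4 of the 9, Vtcn1, Nectin2, Cd80 and Cd86, while 50.9% of all tested genes were without overlap.

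**Figure D1:**
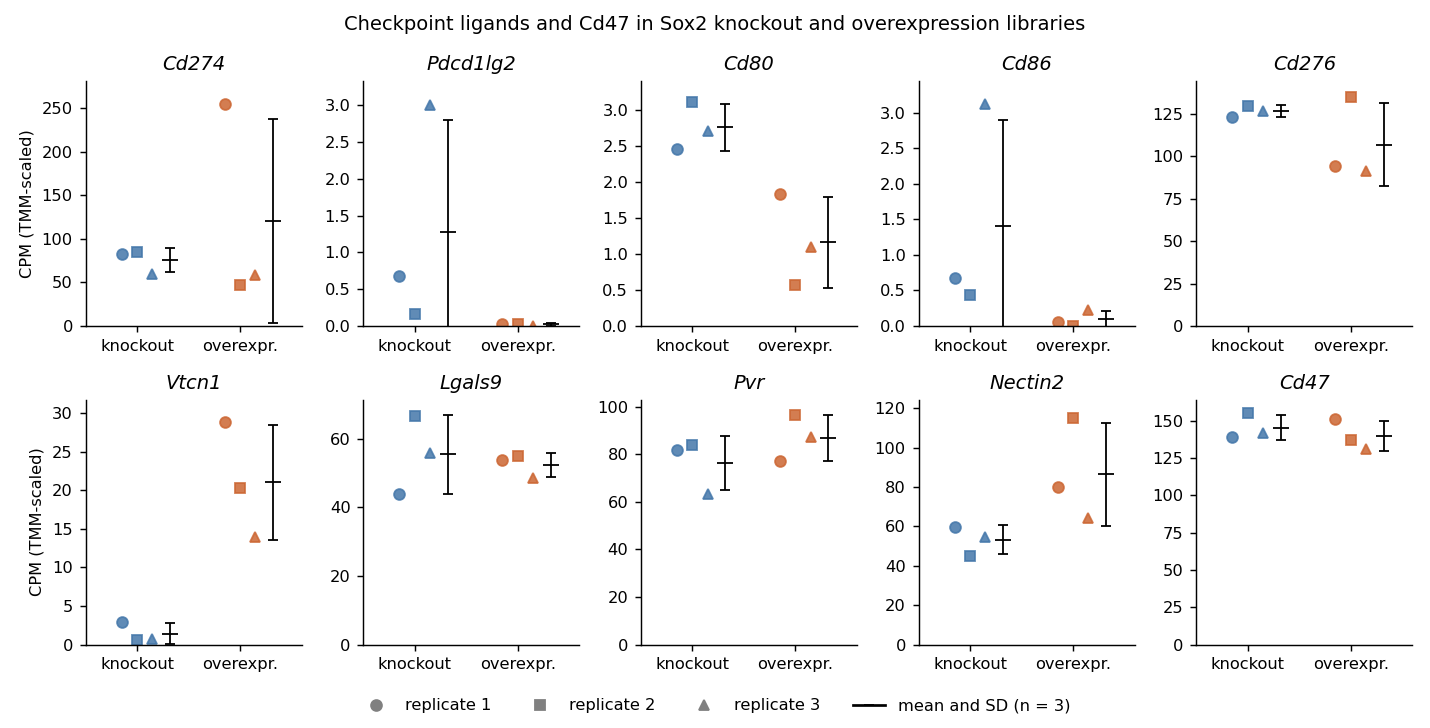
TMM-scaled CPM of the 10 genes in each library, with knockout libraries in blue and overexpression libraries in orange, a marker shape for each replicate, and the mean with its SD (n = 3) in black, cut off at 0. The overexpression libraries of Vtcn1 (13.9 to 28.8 CPM) lie above all knockout libraries, Cd47 overlaps, and Cd274 is spread by overexpression replicate 1 at 255 CPM.

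Vtcn1 encodes B7-H4, a B7 family protein that inhibits T cells and is made by epithelia. It lies on chromosome 3 (100825459 to 100896922, plus strand, GRCm38). Its levels were 2.96, 0.595 and 0.658 CPM in knockout replicates 1, 2 and 3 and 28.8, 20.3 and 13.9 CPM in overexpression replicates 1, 2 and 3. All overexpression libraries were above all knockout libraries, and the highest knockout library was replicate 1. The mean went from 1.40 ± 1.35 to 21 ± 7.47 CPM (SD, n = 3 each). This is a rise of 3.90 on the log2 scale (standard error 0.62, edgeR, adjusted p = 0.00156). The knockout mean was 0.627 CPM without replicate 1, and the log2 fold change was then 5.07. Vtcn1 passed the threshold in all 13 alternative fits, with adjusted p-values from 2.12e-12 to 0.0122, with a log2 fold change of 2.95 under scaling to the 16 epithelial markers.

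Promoter sequence is shown for Vtcn1, the gene with the largest rise of the 10, and for Cd274 and Lgals9, whose levels are set beside interferon genes further on. Sequences are the 250 bases before the RefSeq start on GRCm38.p6, read 5′ to 3′ on the strand of the gene. Of the 10 genes, 8 had an entry, and Cd86 and Pvr had none. Capitals mark a core interferon-stimulated response element, GAAANNGAA or TTCNNTTTC on the other strand, which 7.15% of 32536 promoter windows hold. It began 76 bases before the start of Cd274 and 54 bases before that of Lgals9, and no other of the 8 genes held one.
Vtcn1 (chr3:100825209-100825458, plus strand): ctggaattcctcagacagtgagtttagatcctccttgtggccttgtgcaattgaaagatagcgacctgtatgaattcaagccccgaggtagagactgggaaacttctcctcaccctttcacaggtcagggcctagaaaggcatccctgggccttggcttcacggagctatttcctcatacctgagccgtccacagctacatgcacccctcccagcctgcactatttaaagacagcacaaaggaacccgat
Cd274 (chr19:29367188-29367437, plus strand): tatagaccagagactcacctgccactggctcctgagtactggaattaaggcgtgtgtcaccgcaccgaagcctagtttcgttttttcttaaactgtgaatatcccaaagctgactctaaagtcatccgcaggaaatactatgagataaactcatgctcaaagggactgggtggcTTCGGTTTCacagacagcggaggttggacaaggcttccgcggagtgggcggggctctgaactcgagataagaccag
Lgals9 (chr11:78984925-78985174, minus strand): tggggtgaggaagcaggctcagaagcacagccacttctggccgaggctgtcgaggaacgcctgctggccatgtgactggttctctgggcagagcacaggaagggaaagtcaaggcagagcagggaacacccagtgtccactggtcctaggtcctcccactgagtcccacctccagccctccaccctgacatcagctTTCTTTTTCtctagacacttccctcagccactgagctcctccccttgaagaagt
The core of SOX binding sites, ACAAT, is found with its form on the other strand, ATTGT, in 27.4% of the windows and was not in that of Vtcn1. Among the 8 genes it was found in the window of Pdcd1lg2 alone. The GAS letters TTCNNNGAA (7.04% of windows) were in none of the 8, and the NF-kB core GGGNNTTCC or GGAANNCCC (5% of windows) was in those of Nectin2 and Lgals9, where it did not overlap the marked element. A match describes letters and not a bound site.

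Cd276, which encodes the B7 family protein B7-H3, lies on chromosome 9 (58524298 to 58555437, minus strand) and shares exon bases with Gm10657 on the other strand. Its levels were 123, 130 and 127 CPM with knockout and 94.5, 135 and 91.2 CPM with overexpression, in replicate order. The groups overlapped, because overexpression replicate 2 was the highest library of all. The log2 fold change was -0.25 (95% interval -0.65 to 0.16, edgeR, adjusted p = 0.32). Without overexpression replicate 2 it was -0.43, with an adjusted p of 0.0153, and over all alternatives the adjusted p ranged from 0.000595 to 0.688.

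Cd274, the PD-L1 gene, lies on chromosome 19 (29367455 to 29388095, plus strand) and shares exon bases with AC119228.1 on the other strand. Its levels were 82.1, 84.4 and 59.8 CPM in knockout replicates 1, 2 and 3 and 255, 46.8 and 58.2 CPM in overexpression replicates 1, 2 and 3. A single library, overexpression replicate 1, stood above the rest, and the other overexpression libraries were both below all knockout libraries. The means were 75.5 ± 13.6 and 120 ± 117 CPM (SD, n = 3 each). The log2 fold change of 0.67 (95% interval -0.62 to 1.96, edgeR, adjusted p = 0.401) became -0.50 without overexpression replicate 1 (adjusted p = 0.11), and the overexpression mean was then 52.5 CPM. The alternatives gave an adjusted p between 0.11 and 0.689, so a direction for Cd274 was not established at this number of libraries.

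Some genes that interferon induces were also highest in that library. The genes most like Cd274 over the 6 libraries, by root mean square difference of mean-centred log2 CPM, were Tgtp2 (0.24) and Gbp3 (0.25), which encode interferon-induced GTPases. Cd274 itself varied by 0.79 around its mean on that scale. Because Tgtp2 and Gbp3 were picked for their likeness to Cd274, high values of both in overexpression replicate 1 follow from that choice. Tgtp2 stood at 325 CPM in overexpression replicate 1 and at 76.6 to 131 CPM in the other libraries, and Gbp3 at 346 CPM against 103 to 183 CPM. Ido1, an enzyme gene that breaks down tryptophan and is induced by interferon, stood at 56.0 CPM in that library and at 5.81 to 12.7 CPM elsewhere. Irf1, which encodes an interferon-induced transcription factor, stood at 1060 CPM there and at 471 to 784 CPM elsewhere. Ido1 and Irf1 were chosen after their values were seen, and neither passed the threshold between the groups (edgeR adjusted p = 0.19 and 0.294). Other genes named for induction by interferon were not highest there: Ifi203 was at 96.4 CPM in overexpression replicate 1 and at 132 CPM in knockout replicate 2, and Ifi27 at 56.7 and 73.2 CPM. What sets overexpression replicate 1 apart was not tested.

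**Figure D2:**
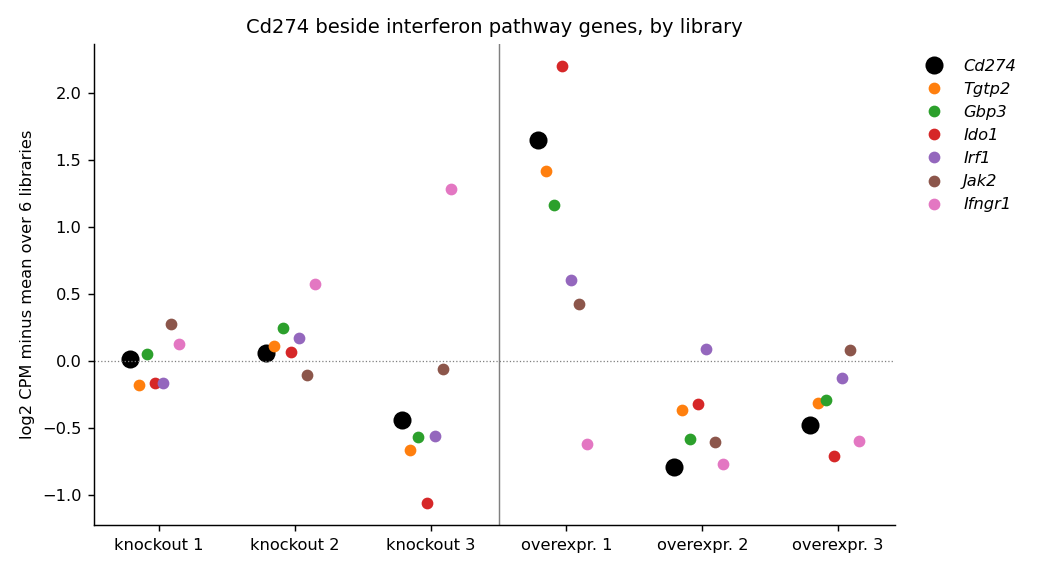
Log2 CPM of Cd274 and of interferon pathway genes minus each gene's mean over the 6 libraries, by library. Cd274, Tgtp2, Gbp3, Ido1 and Irf1 have their highest points in overexpression replicate 1, where Cd274 is at 255 CPM, while the interferon receptor gene Ifngr1 is highest in knockout replicate 3.

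Pdcd1lg2, the PD-L2 gene, also on chromosome 19 (29410919 to 29471161), was low. Knockout replicates 1, 2 and 3 gave it 23, 5 and 110 counts (0.674, 0.165 and 3.01 CPM) and the overexpression replicates 1, 1 and 0 counts. All knockout libraries were above all overexpression libraries, and knockout replicate 3 held most of the counts. The gene did not pass the count filter. The summed counts, 138 and 2, gave a knockout to overexpression ratio of 69.7 (exact 95% interval 18.9 to 581, counting error only). With 28 and 2 counts, the ratio was 22.2 without knockout replicate 3 (interval 5.59 to 192), a value added after the data were seen. The knockout mean of 1.28 CPM became 0.42 CPM once replicate 3 was omitted.

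Cd86 (chromosome 16, 36603869 to 36666081, minus strand) was the 1 tested gene of the 10 that fell. Its levels were 0.674, 0.43 and 3.12 CPM in knockout replicates 1, 2 and 3 and 0.061, 0 and 0.228 CPM in overexpression replicates 1, 2 and 3, from 23, 13 and 114 counts and 2, 0 and 9 counts. The groups did not overlap, and knockout replicate 3 was the highest library. The log2 fold change was -3.73 (standard error 1.04, edgeR, adjusted p = 0.0255). It was -2.37 without knockout replicate 3 (adjusted p = 0.0771), and the adjusted p was also over 0.05 without overexpression replicate 1 (0.0703) or 2 (0.0833), in a range over the alternatives from 0.00026 to 0.0833. Leaving out replicate 3 took the knockout mean from 1.41 to 0.552 CPM.

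Cd80 (chromosome 16, 38455561 to 38496335, plus strand), the paralogous CD28 and CTLA-4 ligand gene, had 2.46, 3.11 and 2.71 CPM with knockout and 1.83, 0.575 and 1.09 CPM with overexpression. It was steady among the knockout libraries, including replicate 3, and the groups did not overlap. The log2 fold change of -1.24 (standard error 0.43) missed the threshold (edgeR, adjusted p = 0.0578). It passed without overexpression replicate 1 (adjusted p = 0.0224), in the DESeq2 test (0.027) and under scaling to the epithelial markers (log2 fold change -2.28, adjusted p = 0.00221). The highest adjusted p over the alternatives was 0.148. The genes most like Cd80 over the libraries were Slfn8 and Ifi203, at root mean square differences of 0.11 and 0.17. The general leukocyte, fibroblast and endothelial markers moved in the same direction as Cd86, Pdcd1lg2 and Cd80 (median log2 fold changes -6.01, -7.81 and -4.08). The macrophage and dendritic cell markers were mixed, with 5 of 13 tested lower and 1 higher. The part of any of these markers' cells in the values of Cd86, Pdcd1lg2 and Cd80 was not tested. Cd86, Pdcd1lg2 and the general leukocyte markers were highest in the same library, knockout replicate 3.

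Of the TIGIT and CD226 ligand genes, 1 of 2 passed the threshold. Nectin2 (chromosome 7, 19716644 to 19750483, minus strand) had 59.9, 45.2 and 54.5 CPM with knockout and 80.1, 115 and 64.1 CPM with overexpression. All overexpression libraries were above all knockout libraries, with overexpression replicate 2 highest. The means were 53.2 ± 7.41 and 86.5 ± 26.3 CPM (SD, n = 3 each), and the log2 fold change was 0.70 (standard error 0.23, edgeR, adjusted p = 0.0443). The call was close to the threshold. Omitting any knockout library took the adjusted p over 0.05 (0.0605, 0.148 and 0.0939 for replicates 1, 2 and 3), as did omitting overexpression replicate 1 (0.0553) or 2 (0.0795), and scaling to the epithelial markers turned the log2 fold change to -0.38 (adjusted p = 0.207, the range over the alternatives being 0.00603 to 0.207). Nectin2 shares exon bases with Gm20512 on the other strand.

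Pvr, also on chromosome 7 (19903578 to 19921160, minus strand), had 81.7, 84.0 and 63.4 CPM with knockout and 77.2, 96.3 and 87.1 CPM with overexpression. The groups overlapped. Its log2 fold change was 0.19 (95% interval -0.19 to 0.56, edgeR, adjusted p = 0.421) and turned to -0.86 under scaling to the epithelial markers (adjusted p = 0.00336, with a range over the alternatives up to 0.81). The genes most like Nectin2 were Rab3ip (0.084) and Rhbdd2 (0.096), and those most like Pvr were Vps37c (0.026) and Pdzd4 (0.036), as root mean square differences.

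Cd47 was the most even of the 10 genes. It lies on chromosome 16 (49800533 to 49915010, plus strand). Its levels were 139, 155 and 142 CPM with knockout and 151, 137 and 131 CPM with overexpression. The groups overlapped, and the log2 fold change was -0.063 with a 95% interval of -0.38 to 0.25 (edgeR, adjusted p = 0.756). A change of Cd47 within that interval was not detectable with these libraries. Lgals9, which encodes galectin-9, a ligand of TIM-3, lies on chromosome 11 (78962974 to 78984946, minus strand). It had 43.8, 66.7 and 55.9 CPM with knockout and 53.7, 55.1 and 48.5 CPM with overexpression. Its groups overlapped as well, with a log2 fold change of -0.081 (95% interval -0.48 to 0.32, edgeR, adjusted p = 0.754). Under the scaling to the epithelial markers, which put the median of all tested genes at -1.07, Cd47 was at -1.12 (adjusted p = 0.00133) and Lgals9 at -1.15 (adjusted p = 0.00208), close to that shift. Their adjusted p-values reached 0.997 and 0.98 over the other alternatives. The genes most like Lgals9 were Ifi27 (0.058), named for its induction by interferon, and Pramef8 (0.066), as root mean square differences. Those most like Cd47 were Pik3r4 (0.034) and Rab21 (0.056).

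**Figure D3:**
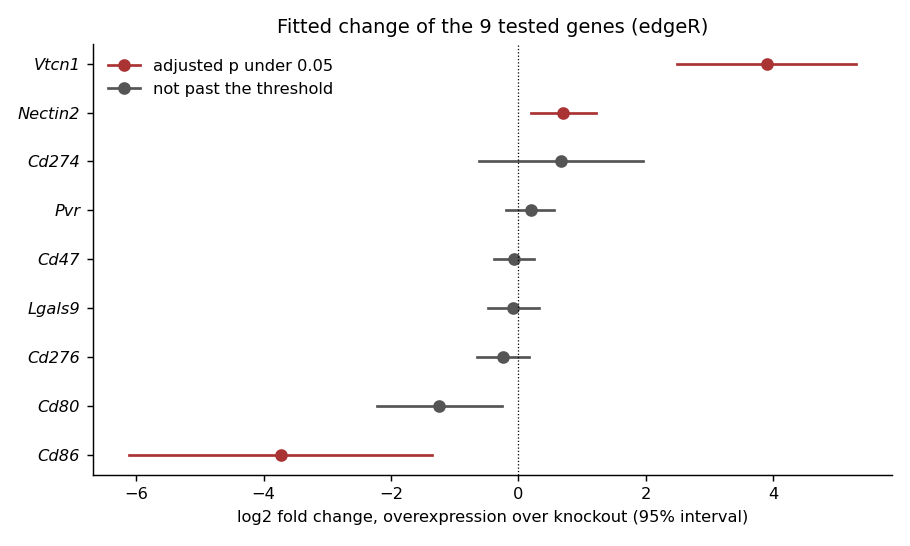
Log2 fold change of the 9 tested genes, overexpression over knockout, with the 95% interval of the edgeR fit before adjustment for multiple tests, and red for an adjusted p under 0.05. Vtcn1 (3.90) and Nectin2 (0.70) lie to the right, Cd86 (-3.73) to the left, and the interval of Cd47 (-0.38 to 0.25) is the narrowest.

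Levels can be compared between genes once counts are divided by exon length. The scale is counts per kilobase of exon, set to a sum of 1000000 over all genes in each library, without TMM. It was used for order within a group and for shares of the summed level of the 10 genes. Cd276 led the knockout libraries at 121 ± 4.37 (SD, n = 3), above the range of Lgals9 at 90.2 ± 14.4. Lgals9, Cd47 (81.0), Cd274 (72.7), Nectin2 (53.6) and Pvr (43.6) followed, each overlapping its neighbour in range. Cd80 (2.60), Pdcd1lg2 (2.35), Vtcn1 (1.91) and Cd86 (1.37) formed a low set that overlapped in turn. With overexpression Cd274 led by its mean, 105 ± 109, but its range ran from 34.0 to 231. In range Cd274 was not separated from Cd276 (86.9), Lgals9 (74.1), Nectin2 (73.4), Cd47 (67.3), Pvr (42.6) or Vtcn1 (24.4). Vtcn1 was at 24.4 ± 10.2, below Pvr (42.6) and above Cd80 (0.988), and its range, 16.8 to 36.1, overlapped neither of theirs. On this scale Vtcn1 made up 0.403 ± 0.393% of the summed level of the 10 genes with knockout and 5.02 ± 0.696% with overexpression (SD, n = 3 each). These shares also depend on the other genes, as Cd274 made up 36.5% of the sum in overexpression replicate 1.

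The receptors and partners of these proteins were measured in the same libraries. Of 13 genes 12 were tested, 8 fell and 0 rose (edgeR, and 0 also at an unadjusted p under 0.05 and in DESeq2), against 18.0% and 13.6% of all genes. The list's median log2 fold change was -5.49. The gene with the smallest p was Sirpa, the phagocyte receptor of CD47, at 26.5, 44.1 and 59.2 CPM with knockout and 0.0915, 0.101 and 0.152 CPM with overexpression. This is -8.48 on the log2 scale (adjusted p = 2.65e-06). All knockout libraries were far above all overexpression libraries. Sirpa belongs to a family of similar genes that may share reads. Nectin3, a partner of Nectin-2 and PVR, fell by 6.46 on the log2 scale (adjusted p = 9.14e-06). Havcr2, the TIM-3 gene, fell by 4.14 (adjusted p = 0.000218) and Cd96, a receptor of PVR, fell by 7.35 (adjusted p = 0.000813). Its log2 fold change was -6.14 without knockout replicate 3 (adjusted p = 0.000162, and 5.77e-10 to 0.0109 over the alternatives), and its knockout mean went from 3.77 to 1.65 CPM.

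The PD-1 gene Pdcd1 and the CD28 gene, named here after their values were seen, followed the leukocyte markers by library. Pdcd1 was at 3.49, 3.51 and 22.9 CPM in knockout replicates 1, 2 and 3, with at most 2 counts in an overexpression library. Cd28 was at 1.82, 3.27 and 20.7 CPM, with at most 1 count with overexpression. Both were highest in knockout replicate 3, as Ptprc was. Without that library their knockout means went from 9.95 to 3.5 CPM and from 8.61 to 2.55 CPM, and 8 to 9 receptors were lower past the threshold whichever library was omitted. Not all receptors and partners followed Ptprc: Nectin3 was at 7.65, 14.3 and 12.3 CPM in knockout replicates 1, 2 and 3. The fibroblast and endothelial markers fell between the same groups as well (median log2 fold changes -7.81 and -4.08). How far the leukocyte, fibroblast or endothelial share of the libraries carries these receptor values was not tested. The hyaluronan receptor gene Cd44, the thrombospondin gene Thbs1 and the PD-L2 partner gene Rgmb, which carcinoma cells can also make, did not pass the threshold (adjusted p = 0.247, 0.293 and 0.215).

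Tigit, the receptor of PVR and Nectin-2, was also chosen after its values were seen. It had 9.61, 7.67 and 16.6 CPM with knockout and 21.1, 22.6 and 11.1 CPM with overexpression. Its groups overlapped, and the log2 fold change of 0.69 did not pass the threshold (edgeR, adjusted p = 0.167). It passed without knockout replicate 3 (adjusted p = 0.0447), was -0.45 under the epithelial scaling, and ranged in adjusted p from 0.0447 to 0.391 over the alternatives. In overexpression replicates 1, 2 and 3 the T-cell gene Cd3e was at 0.0305, 0 and 0.0253 CPM. Other T-cell genes were higher there, with Cd3d at 0.458, 0.169 and 0.531 CPM and Cd4 at 1.04, 0.541 and 0.329 CPM. Which cells made the Tigit RNA was not tested.

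**Figure D4:**
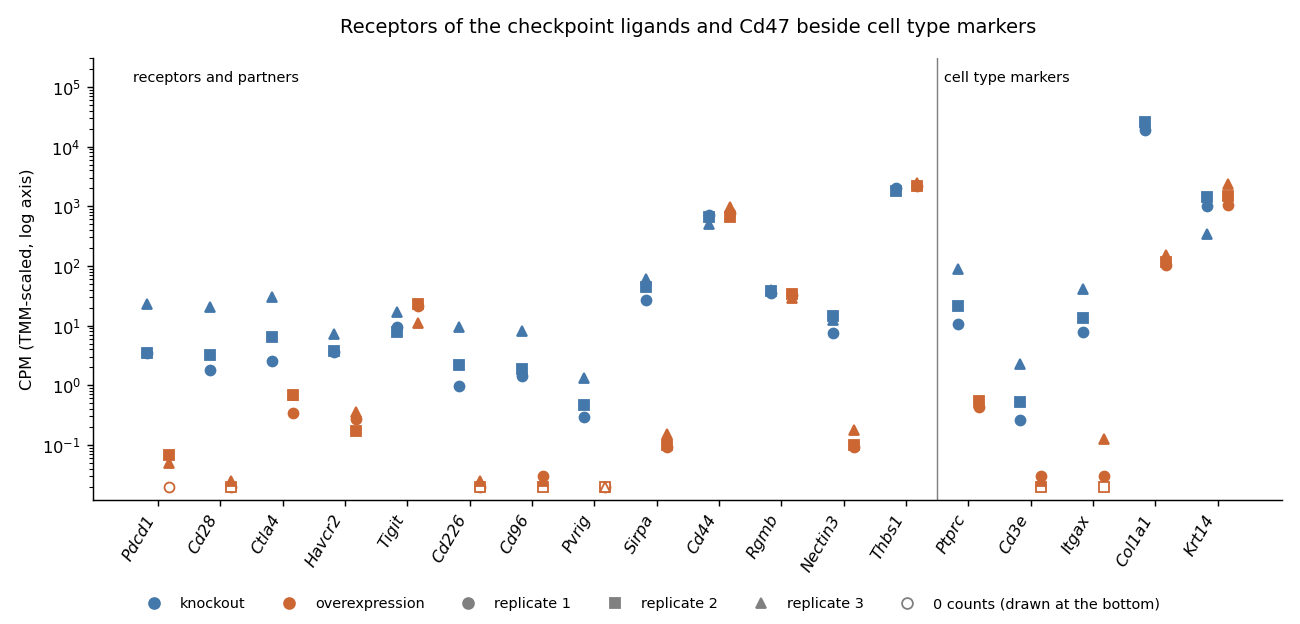
TMM-scaled CPM on a log axis of 13 receptors and partners and of 5 cell type markers, by library, with knockout in blue and overexpression in orange, a marker shape for each replicate, and open symbols at the bottom for 0 counts. The overexpression libraries of Pdcd1, Cd28, Cd226, Cd96 and Pvrig lie at 0.0677 CPM or lower, as those of Cd3e do, whereas the groups of Tigit and Cd44 overlap.

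Other genes whose products act on immune cells, among them surface ligands, enzymes and galectins, changed in both directions. Of 27 genes 19 were tested, 4 rose (21.1%, against 13.6% of all tested genes) and 9 fell (47.4%, against 18.0%). The list's median log2 fold change was -0.76. The genes that rose were Ceacam1, Lgals3, Nectin4 and Cd24a. Ceacam1, an adhesion molecule that inhibits T and NK cells, rose from 2.40, 3.08 and 1.86 CPM with knockout to 138, 56.6 and 91.7 CPM with overexpression, by 5.29 on the log2 scale (standard error 0.38, edgeR, adjusted p = 1.46e-05). It may share reads with its close paralogue Ceacam2. Lgals3, which encodes galectin-3, rose from 216 ± 16.5 to 851 ± 115 CPM (SD, n = 3 each), which is 1.98 on the log2 scale (edgeR, adjusted p = 5.09e-05). Nectin4, a further TIGIT ligand, rose by 2.53 on the log2 scale (adjusted p = 0.00295).

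Cd24a, a second signal against engulfment beside CD47, read by Siglec receptors, was at 210, 151 and 144 CPM with knockout and 403, 422 and 402 CPM with overexpression. Its groups did not overlap, with a log2 fold change of 1.28 (standard error 0.18, edgeR, adjusted p = 0.00087). Of these 4 genes, Cd24a alone lost its call under the scaling to the epithelial markers (log2 fold change 0.24, adjusted p = 0.315, the highest over its alternatives). All 4 passed the threshold whichever library was omitted. The epithelial markers rose between the same groups by a median of 1.13 on the log2 scale, and their part in these rises was not tested.

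The 9 genes that fell were Icosl, Vsir, Igsf11, Cd40, Cd200, Nectin1, Ulbp1, Nt5e and Entpd1. Entpd1, the CD39 ectonucleotidase that starts the breakdown of extracellular ATP, went from 10.2 ± 5.06 to 0.553 ± 0.0705 CPM (SD, n = 3 each), which is -4.20 on the log2 scale (edgeR, adjusted p = 0.000106). Nt5e, the CD73 enzyme that makes adenosine in the next step, fell by 1.08 on the log2 scale (adjusted p = 0.0208). Cd40, a costimulatory receptor of antigen-presenting cells, fell by 4.93 (adjusted p = 0.000671). Vsir, the VISTA gene, fell by 1.53 (adjusted p = 0.00456), and Ulbp1, a ligand of the activating NK receptor NKG2D, fell by 1.36 (adjusted p = 0.00177). Icosl, Igsf11, Nectin1 and Nt5e lost their calls in at least 1 fit that left out a library, with adjusted p-values up to 0.069, 0.127, 0.0717 and 0.0815. Between the same groups, the leukocyte, fibroblast and endothelial markers had median log2 fold changes of -6.01, -7.81 and -4.08, and their part in these falls was not tested. Entpd1, Vsir, Cd200, Icosl, Ulbp1 and, by a small margin, Igsf11 were highest in knockout replicate 3, as Ptprc was. Cd40 was highest in knockout replicate 1 (5.63 CPM). Nectin1 and Nt5e were highest in knockout replicate 2 (53.0 and 168 CPM) and lowest of the knockout libraries in replicate 3 (35.0 and 80.9 CPM). Of the untested genes, Tnfsf4 had no counts with overexpression and was at least 8.94-fold lower against 3 counts in the shallowest overexpression library, or at least 5.54-fold lower when knockout replicate 3 was omitted.

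Of 27 genes that regulate PD-L1 or CD47, all tested, 5 rose and 5 fell. Each is 18.5%, near the 13.6% and 18.0% of all tested genes, with a median log2 fold change of 0.065. Hif1a, the hypoxia factor gene, went from 136 ± 18.1 to 55.9 ± 16.9 CPM (SD, n = 3 each), which is -1.28 on the log2 scale (edgeR, adjusted p = 0.00326). Ifngr1, the ligand-binding chain of the interferon-gamma receptor, went from 46.2, 62.9 and 103 CPM with knockout to 27.5, 24.8 and 27.9 CPM with overexpression. This is -1.40 on the log2 scale (adjusted p = 0.00452). Stt3a, a subunit of the enzyme that adds N-glycans to PD-L1, fell by 0.63 on the log2 scale (adjusted p = 0.0092), and Jak1 and Myc also fell. Cmtm4, which protects PD-L1 from degradation, rose by 0.61 (adjusted p = 0.0242), and Spop, Otub1, Usp22 and Zdhhc9 also rose. Of these 10 genes, Hif1a and Ifngr1 passed the threshold whichever library was omitted, and each of the other 8 missed it in at least 1 such fit. Under the epithelial scaling the log2 fold changes of the 5 that rose turned negative, between -0.64 and -0.43. Cmtm6, a close relative of Cmtm4 with the same role, and Qpctl, the enzyme that modifies CD47 for SIRP-alpha binding, did not pass the threshold (adjusted p = 0.292 and 0.562).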

How the data were processed

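RNA from 6 libraries was measured, 3 per group, and groups and replicate numbers were taken from the sample titles. The values deposited by the authors are read counts by gene, whole and not normalized. The submitters' processing notes name kallisto 0.44.0 and mm10 without saying how they were used, and the strand setting is not given in the sources used here, so reads of overlapping genes could not be told apart. The 96 rows that name no mouse gene (92 ERCC spike-ins and 4 constructs, at most 2.23e-05% of a library) were left out. Symbols, positions and exon lengths came from GENCODE M21 (GRCm38), with a symbol for 55144 IDs.

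After filterByExpr at its defaults (a count of 10 and a total of 15) and TMM scaling, groups were compared by edgeR's quasi-likelihood test (version 4.0.16, R 4.3.3), with the group as the only term. The Benjamini-Hochberg adjustment ran over the 18504 genes that passed, and an adjusted p under 0.05 was called. Standard errors are the log2 fold change divided by the square root of F, and 95% intervals use the degrees of freedom of the test. The same fit was tested on simulated counts. Alternatives were RLE and upper-quartile scaling, scaling to 16 epithelial markers by their median ratio, no filter, a robust fit, a block by replicate number, DESeq2 1.42.0, and each library left out in turn. The 10 genes, the gene lists, the tests and the alternatives were chosen with earlier results of these data known. Named genes are Sox2, the 10 genes, the 4 genes with the smallest p in each of 3 related lists, the members of counts of 5 or fewer, the marker genes, and for each tested gene the 2 genes of like pattern, for which predicted, mitochondrial and ribosomal protein genes and those under an average log2 CPM of 4 were left out. Other genes named were chosen after their values were seen. No batch or date is in the labels.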

Additional observations from a re-analysis of the deposited data

Results flagged for a closer look

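Of the 4 construct rows left out of the tests, mCherry held 8 counts in knockout replicate 3, above the 3 counts that a count of 0 allows. It had 1 count in knockout replicate 2 and 0 in the other 4 libraries.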

How the results depend on the processing

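Of the 10 genes, 2 were higher and 1 lower past the threshold. The higher count was 1 with upper-quartile scaling, with the epithelial scaling and with the replicate block, and 1 to 2 when a library was left out. The lower count was 6 with the epithelial scaling, 2 without the filter (with Pdcd1lg2) and in DESeq2 (with Cd80), and 0 to 2 when a library was left out, with 0 without knockout replicate 3. The epithelial scaling, which moved the median log2 fold change of all genes to -1.07, called 12973 genes, 380 higher (2.93% of the calls, 43.1% with TMM) and 12593 lower. The count of all higher genes, 2519, was 1446 to 2599 when a library was left out. Under the epithelial scaling 14 of the other ligand, enzyme and galectin genes were lower, and 0 regulators were higher and 22 lower. When a library was left out, 0 to 1 receptors and 0 to 5 regulators were higher, and 2 to 5 regulators lower. With the replicate block 2 regulators were higher.

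Log2 fold changes reversed under the epithelial scaling to -0.32 for Cd274, -0.86 for Pvr, -0.38 for Nectin2, -0.43 for Cmtm4, -0.64 for Spop and for Irf1, -0.51 for Otub1, -0.49 for Usp22, -0.46 for Zdhhc9 and -0.45 for Tigit. Over fits without 1 library, Cd274 ranged from -0.50 to 1.07, Lgals9 from -0.22 to 0.079 and Ido1 from -0.17 to 1.77. The cause was not tested. The deviations of same-numbered libraries from their group means were close to uncorrelated (r across genes 0.0508, 0.0223 and -0.0399 for numbers 1, 2 and 3). Whether such libraries share a batch or a pairing cannot be told from these values with 3 libraries per group. With the replicate block 5593 genes were called, and Nectin2 stood at 0.67 on the log2 scale (adjusted p = 0.0568). Pdcd1lg2, Cd86 and the receptors rest on few counts in the overexpression libraries, which limits the precision of their fold changes.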
